A study of Homo sapiens with 25 samples.

Results

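BT20, a breast cancer cell line with a high level of the epidermal growth factor receptor (EGFR), was exposed to the EGFR kinase inhibitor erlotinib, and transcripts were measured on expression arrays. The late phase described here lies between 6 h and 24 h of drug: 3 arrays at 24 h (labelled 1 day) were set against 3 arrays at 6 h, 6 of the 25 arrays of the series, chosen by line and time point from the labels. The study concerned the rewiring of apoptotic signalling, and it also sampled the MDA-MB-453 line and an MCF line (labelled by these letters alone) at 0 min and 24 h, so the interval from 6 h to 24 h exists for BT20 alone. Cells had been plated in medium with 10% FBS and left for 24 h to adhere before erlotinib was added to a final 10 µM. The other BT20 arrays, 4 at 0 min and 3 at 30 min, entered the fit to estimate the spread and to give starting levels. No BT20 group was kept to 24 h without drug, so drug and time in culture cannot be told apart. The labels do not say whether replicates were separate cultures. The p-values therefore measure the spread of the 13 BT20 arrays within time points, which may be technical. In bulk RNA, fewer cells of a type and less RNA per cell cannot be told apart either.

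EGFR signals through RAS, RAF, MEK and ERK, which drive growth-factor genes and entry into the cell cycle, and through PI3K and AKT, which restrain FOXO transcription factors. When ERK activity is lost, direct targets with short-lived transcripts fall within hours, whereas replication genes, surface receptors and differentiation genes can move later, as cells leave the cycle. BT20 is usually classed as a triple-negative line with basal features. Death in such cells is governed by the balance of BCL2-family proteins and by caspases, of which caspase 8 acts below death receptors.

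The values are log2 GCRMA values, in which 1 unit is a 2-fold difference, and values below about 4 were treated as near background. On the BT20 arrays 44.7 to 45.5% of probe sets lay above 4 and the upper quartile was 7.73 to 7.81. Of 13 basal breast markers on the array 12 exceeded 4 at 6 h or 24 h, among them KRT5, a basal keratin, with means of 11.52 and 12.20. KRT14, another basal keratin, lay below 4. Luminal markers exceeded it for 16 of 32. Among them ESR1, oestrogen receptor alpha, read 8.96 to 9.05 at 6 h and 8.94 to 9.28 at 24 h, although the line is classed as receptor-negative. GATA3 had means of 10.47 and 10.68 and FOXA1 of 9.28 and 8.95. PGR, the progesterone receptor, lay below 4. None of 10 blood cell markers exceeded 4 (highest value 3.96), against 1 of 10 fibroblast and 3 of 9 endothelial markers. The fibroblast list averaged 2.86 to 2.90 per array at 6 h and 2.98 to 3.09 at 24 h. The endothelial list averaged 3.71 to 3.77 and 3.88 to 4.11. The fibroblast marker above 4 was COL1A1, with means of 9.085 at 6 h and 9.558 at 24 h. The endothelial ones were CDH5 (11.05 and 11.03), ERG (5.349 and 5.968) and PECAM1 (3.707 and 4.61). The part of these other markers in the results was not tested.

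Array correlations over all genes were 0.996 to 0.998 among the 6 h arrays, 0.996 to 0.997 among the 24 h arrays and 0.94 to 0.949 between these groups. One 0 min array, replicate 4, correlated at 0.985 to 0.988 with the 6 h arrays and at 0.957 to 0.963 with 0 min replicates 1 to 3. Another array, 0 min replicate 3, correlated at 0.997 with 30 min replicate 1 and at 0.994 with 0 min replicates 1 and 2. Replicate 4 and the 6 h arrays therefore share a shift that the time points do not explain, and the labels name no batch for it. Each change from 6 h to 24 h was fitted without and with a term for this shift. Without the term replicate 4 stays in the 0 min group and widens the standard errors of genes on which it lies apart. A gene not called in that fit can thus still have 6 h and 24 h arrays that do not overlap. DDIT4 was such a gene, with standard deviations of 0.079 at 6 h and 0.015 at 24 h but a standard error of 0.24. With the term, the change equals the difference of 24 h from 0 min replicates 1 to 3 minus the difference of 6 h from replicate 4, so it rests on 1 array for the starting level of the 6 h samples.

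Most genes moved between 6 h and 24 h by the first fit, and 32.8% of them kept the call and the direction in the second. Of 11517 genes tested with limma, 6595 were called at a Benjamini-Hochberg adjusted p under 0.05 (57.3% of all genes tested): 3601 higher at 24 h (31.3%) and 2994 lower (26%). The 3 arrays at 24 h lay all above the 3 at 6 h for 4689 genes (40.7%) and all below them for 4147 (36%). At least 2-fold changes among the called genes numbered 1375 up and 978 down. With the shift term 3304 genes were called (28.7%), 1931 higher (16.8%) and 1373 lower (11.9%). Both fits called 2162 genes in the same direction (18.8%), 1332 higher (11.6%) and 830 lower (7.21%), and 523 and 219 of these moved at least 2-fold in both. A further 3246 genes lost the call but kept the sign with the term, 1135 lost the call and turned sign, 1090 gained a call, and 52 were called in opposite directions. Replicate 4 lay at least 1 log2 unit from the mean of replicates 1 to 3 for 1744 genes, which included 1152 of the 6595 called genes and 155 of the 2162.

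**Figure D1:**
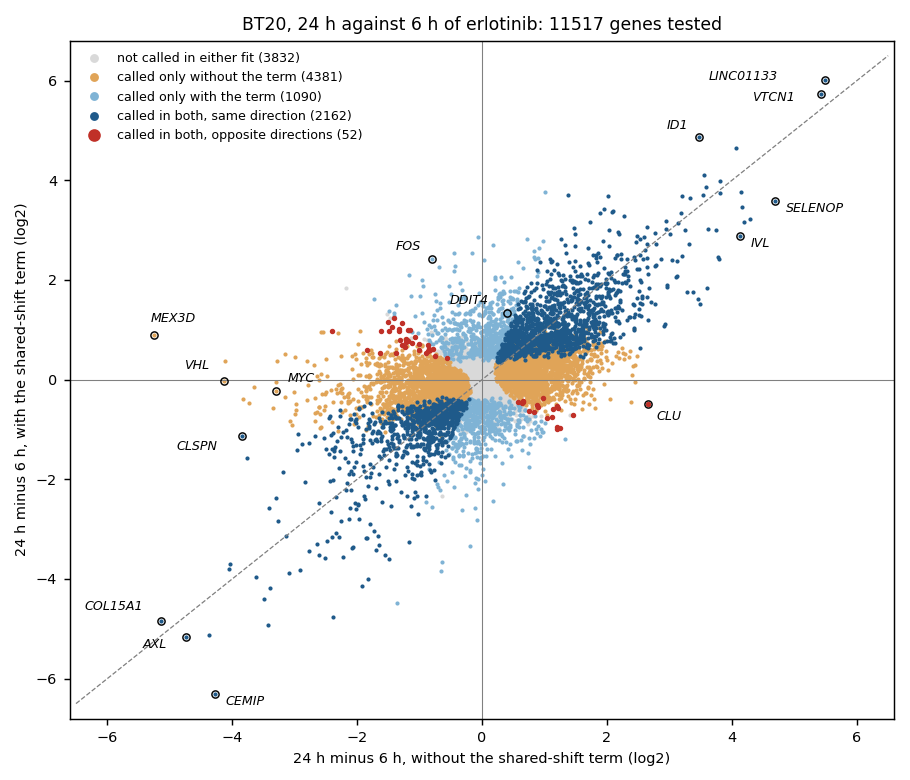
Each point is 1 of the 11517 genes tested, with its 24 h minus 6 h change in log2 units without the shared-shift term (x axis) and with it (y axis); the dashed line marks equal values and colours mark calls at adjusted p under 0.05. LINC01133, VTCN1, AXL and COL15A1 lie near the dashed line far from 0, whereas MEX3D, VHL and MYC lie far to the left but near 0 on the y axis.

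Errors after ± are standard errors of the limma fit, and "called in both fits" means called in the same direction with and without the shift term. The largest rise belonged to LINC01133, a long non-coding RNA, which read 4.19, 4.54 and 4.11 on the 6 h arrays and 9.63, 9.88 and 9.77 on the 24 h arrays. The 24 h arrays stood far above every other BT20 array, since 0 min replicates 1 to 3 read 2.24, 2.34 and 2.42 and replicate 4 read 2.85. The rise was 5.48 ± 0.18 (adjusted p = 3.24e-09) and 6.00 ± 0.25 with the term. VTCN1, which encodes the immune checkpoint ligand B7-H4, went from 2.85, 2.88 and 2.81 at 6 h, below the level of 4 and thus with an inexact fold, to 8.36, 8.38 and 8.07 at 24 h. The rise of VTCN1 was 5.42 ± 0.17 without and 5.74 ± 0.27 with the term, and no 24 h array came near an earlier one. SELENOP, the secreted selenium carrier, rose from 5.43, 5.76 and 5.44 to 10.17, 10.31 and 10.22, by 4.69 ± 0.30, or 3.58 ± 0.33 with the term.

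Proteins of the cell surface and of squamous differentiation followed. TMPRSS4, a membrane-bound serine protease, read 6.10, 6.11 and 6.03 at 6 h and 10.27, 10.44 and 10.42 at 24 h, a rise of 4.29 ± 0.24 (3.22 ± 0.17 with the term). IVL, involucrin of the cornified envelope, read 8.26, 7.84 and 8.07 in 0 min replicates 1 to 3, 6.81 in replicate 4, 5.05, 4.94 and 5.05 at 6 h and 9.08, 9.16 and 9.20 at 24 h. All 3 arrays at 24 h were thus above those at 6 h and above those before drug, and the rise of IVL from 6 h was 4.13 ± 0.28, or 2.89 ± 0.18 with the term. HCAR3, a receptor for hydroxycarboxylic acids, rose by 4.06 ± 0.18 (4.66 ± 0.21), from 3.91, 3.50 and 3.58 to 7.89, 7.51 and 7.78. PLAAT2, a phospholipid acyltransferase, went from 5.72, 5.78 and 5.84 to 9.63, 9.65 and 9.47 and rose by 3.81 ± 0.10 (3.75 ± 0.16); its 0 min arrays, replicate 4 included, lay between 5.51 and 5.74. The remaining genes of the 12 largest rises were MAB21L4, GLYATL2, LY6S-AS1, XAF1 and LOC90246, by 4.19, 4.16, 4.15, 3.81 and 3.79 log2 units, all called in both fits, with 6 h means below 4 for the first 4.

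Among the 12 largest falls were a receptor tyrosine kinase, matrix proteins and a Wnt inhibitor. COL15A1, a chain of basement-membrane collagen XV, read 9.62, 9.47 and 9.62 at 6 h and 4.72, 4.26 and 4.29 at 24 h. It stood between 9.56 and 10.14 on the 0 min and 30 min arrays, so the 6 h arrays lay near the starting level, and the fall after 6 h was 5.15 ± 0.18 (4.84 ± 0.29 with the term). AXL, the receptor for GAS6, read 9.21, 9.10 and 9.17 in 0 min replicates 1 to 3, 8.73 in replicate 4, 8.74, 8.81 and 8.60 at 6 h and 4.18, 3.70 and 4.07 at 24 h. AXL fell by 4.73 ± 0.15 (adjusted p = 2.99e-09) and by 5.16 ± 0.20 with the term, to a mean just below 4. CEMIP, a hyaluronan-binding protein, fell by 4.28 ± 0.47, from 7.48, 7.20 and 7.70 to 2.64, 3.36 and 3.53; it read 7.78 in 0 min replicate 4 and 9.66 to 10.10 in replicates 1 to 3, and the fall was 6.31 ± 0.36 with the term.

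HSD3B1, an enzyme of steroid hormone synthesis, was partly down by 6 h. It read 11.11, 11.04 and 10.95 in 0 min replicates 1 to 3 and 11.29 in replicate 4, 8.04, 8.01 and 8.22 at 6 h and 4.14, 3.76 and 4.19 at 24 h, and the late fall was 4.06 ± 0.13 (3.80 ± 0.20 with the term). DKK1, a secreted inhibitor of Wnt signalling, went from 11.55, 11.42 and 11.66 and 11.20 at 0 min to 10.34, 10.34 and 10.42 at 6 h and 6.95, 6.79 and 6.53 at 24 h. Most of the DKK1 fall was late, 3.61 ± 0.15 or 3.96 ± 0.22 with the term. IL7R, the interleukin 7 receptor chain, fell by 4.03 ± 0.14 (3.70 ± 0.20), MGAM, a brush-border maltase, by 4.37 ± 0.19 (5.12 ± 0.18), ARNT2, a bHLH-PAS transcription factor, by 3.50 ± 0.24 (4.40 ± 0.26), and TGM2, transglutaminase 2, by 3.43 ± 0.34 (4.93 ± 0.24); the 24 h means of all but TGM2 were below 4. SHANK2, a scaffold protein, fell by 3.42 ± 0.23 (2.57 ± 0.24). The other members of the 12, CLSPN and FUT8, were high on 0 min replicate 4 as well. CLSPN, the CHEK1 adaptor claspin, read 10.48 there against 7.76, 7.97 and 7.56 in replicates 1 to 3, 10.44, 10.51 and 10.42 at 6 h and 6.37, 6.90 and 6.56 at 24 h, and its fall of 3.84 ± 0.59 was 1.13 ± 0.32 with the term. FUT8, the core fucosyltransferase, fell by 3.77 ± 0.49 and by 1.57 ± 0.32 with the term. Of the 24 genes with the largest changes 6 had over 1 tested probe set, and in each the probe sets moved in 1 direction in both fits. Not all of these probe sets kept a call. Another FUT8 probe set changed by -3.80 without the term and -0.27 with it (not called). A CLSPN probe set changed by -0.84 and -0.46, the latter not called.

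**Figure D2:**
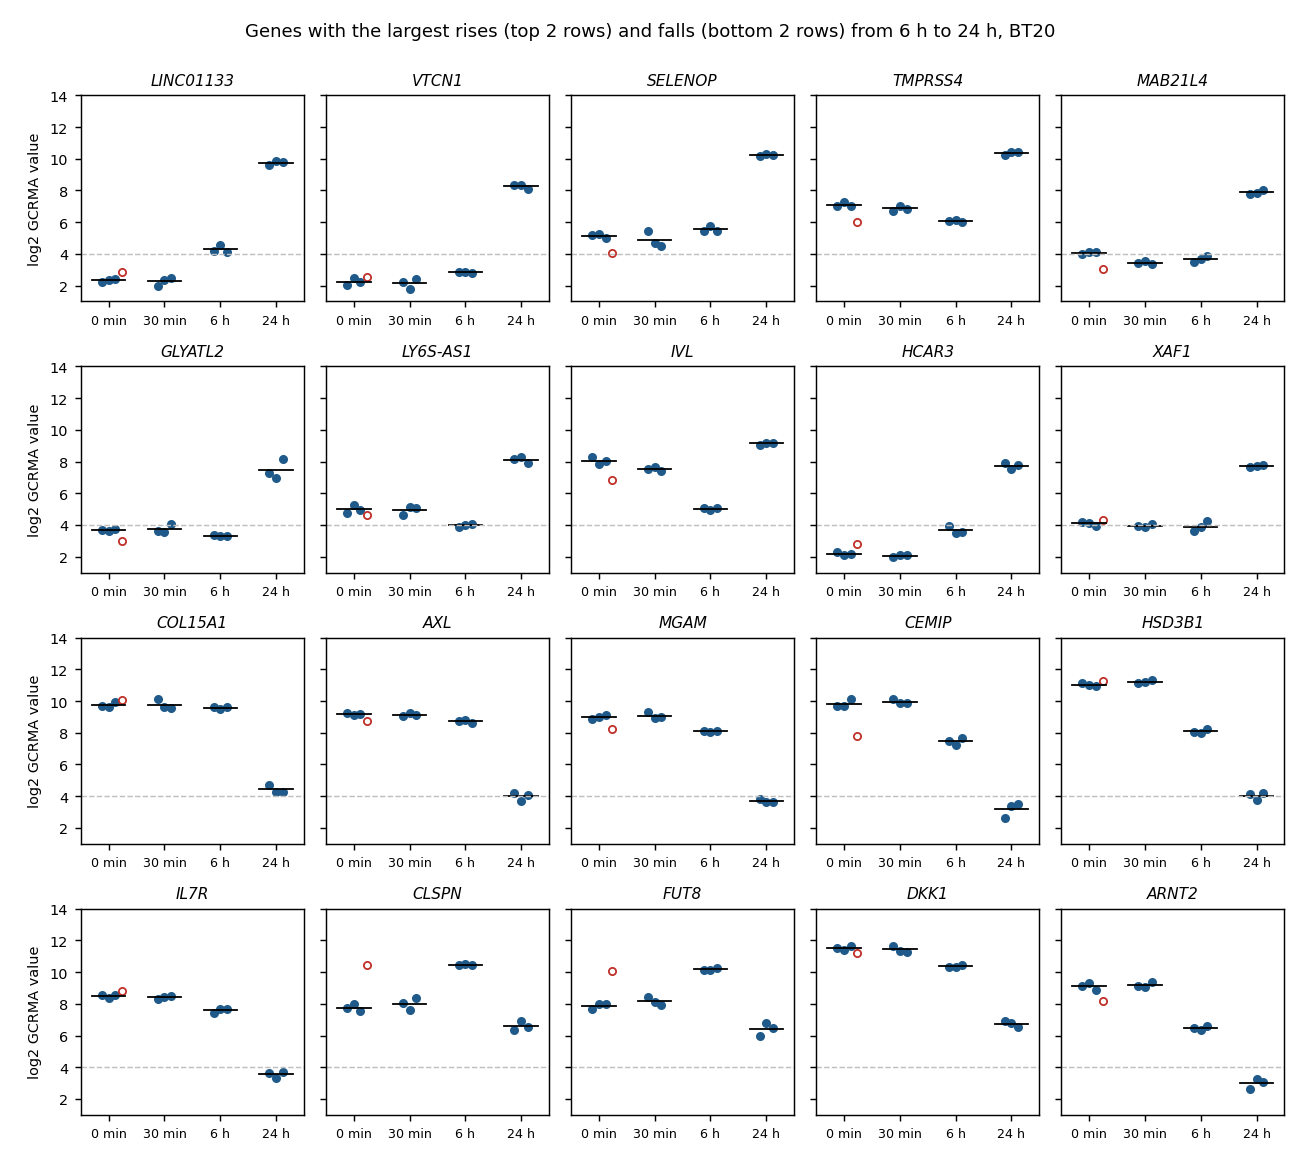
Log2 GCRMA values on the 13 BT20 arrays by time after erlotinib, for the 10 genes with the largest rises and the 10 with the largest falls called in both fits; filled points are arrays, open points are 0 min replicate 4, bars are means of replicates 1 to 3 and the dashed line is the level of 4. The 24 h arrays of LINC01133 sit at 9.63 to 9.88 and those of AXL at 3.70 to 4.18, apart from all earlier arrays, whereas for CLSPN the open point sits with the 6 h arrays.

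Lists of genes with known roles were then counted. They were drawn up with results of these data in view, so their counts describe the response and are read against the shares over all genes tested. Without the term 31.3% of all genes tested rose and 26% fell, with it 16.8% and 11.9%, and in both fits 11.6% and 7.21%. The median change over all genes tested was 0.044, and 0.019 with the term. These shares apply to every list below, and a list near them shows nothing particular to its members.

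**Figure D3:**
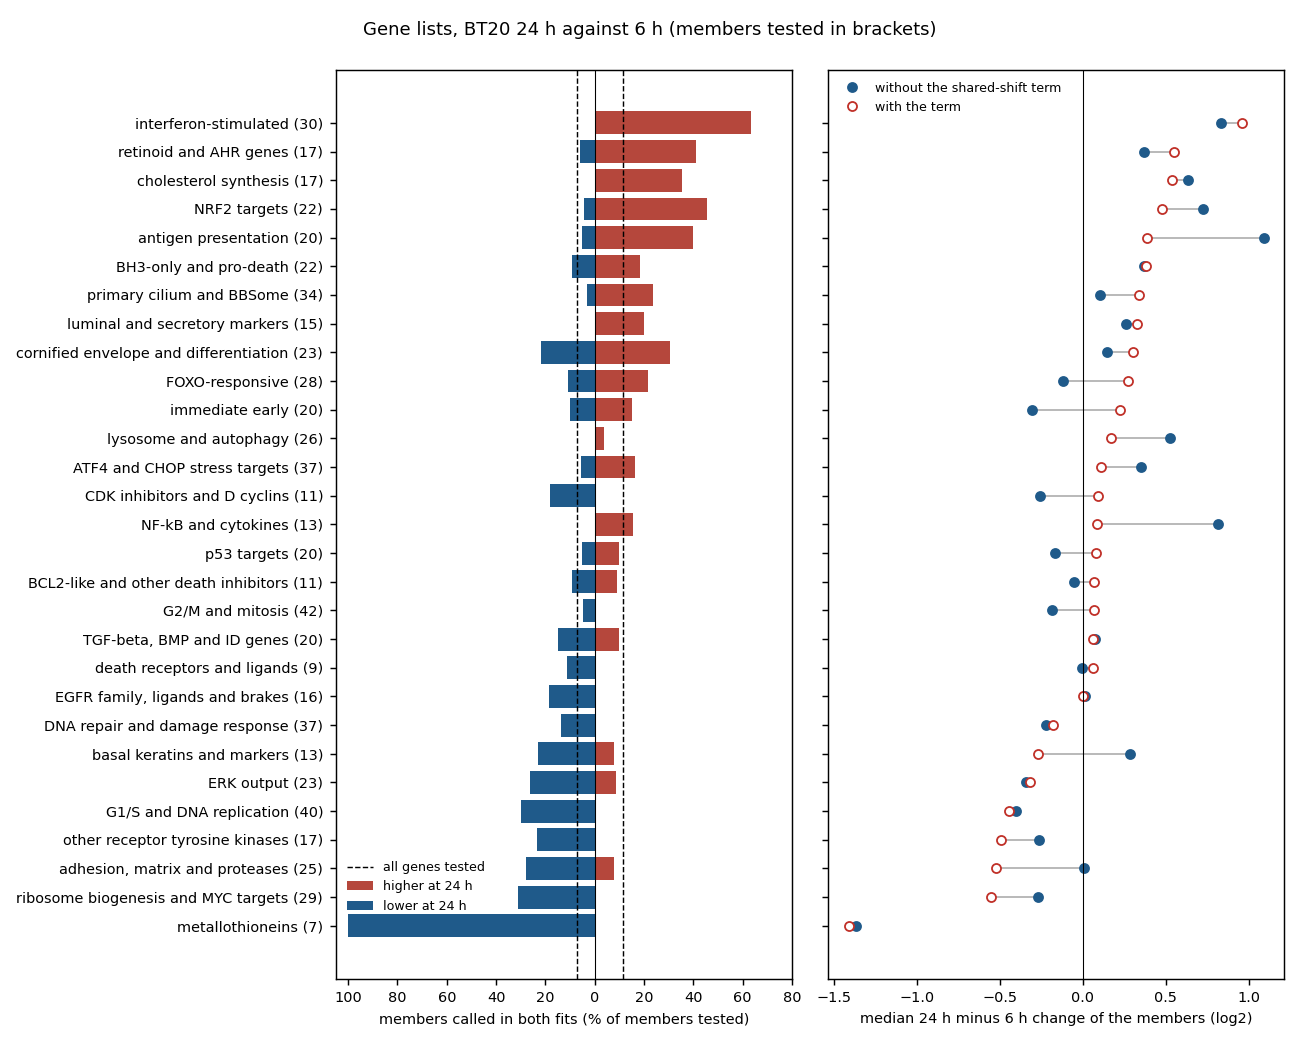
For 29 gene lists, the left panel gives the percent of tested members called in both fits higher (right of 0) or lower (left of 0) at 24 h than at 6 h, with dashed lines at the shares over all genes tested, 11.6% and 7.21%; the right panel gives the median change in log2 units without (filled) and with (open) the shift term. Interferon-stimulated genes lie at the top with 19 of 30 members higher and metallothionein genes at the bottom with 7 of 7 lower, while the median of NF-kB genes moves from 0.82 to 0.08 with the term.

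Interferon-stimulated genes, the antiviral and antigen-display programme that interferons switch on, were higher at 24 h. Of 30 members tested 21 rose and 2 fell without the term, 21 rose and 1 fell with it, and 19 rose in both fits, against 11.6% of all genes; the list's median change was 0.84 and 0.96. XAF1, an interferon-induced antagonist of the caspase inhibitor XIAP, read 3.60, 3.89 and 4.23 at 6 h and 7.67, 7.71 and 7.76 at 24 h, and 4.22, 4.15 and 3.93 in 0 min replicates 1 to 3 and 4.28 in replicate 4. The 24 h arrays stood alone: XAF1 rose by 3.81 ± 0.15, or 4.00 ± 0.24 with the term, and its other tested probe set changed by 3.07. IRF1, an interferon regulatory factor, went from 7.46, 7.43 and 7.26 to 9.39, 9.45 and 9.24, by 1.98 ± 0.15 (1.66 ± 0.23).

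UBE2L6, the conjugating enzyme for the ubiquitin-like protein ISG15, went from 9.29, 9.24 and 9.35 to 11.14, 11.31 and 11.10, by 1.89 ± 0.16 (1.52 ± 0.23). MX1, a dynamin-like antiviral GTPase, read 4.82, 4.83 and 4.72 at 6 h and 6.18, 6.59 and 6.30 at 24 h, and rose by 1.56 ± 0.14 (1.19 ± 0.20). In both genes no 24 h array overlapped any 6 h or 0 min array. IFIT3, a partner of the antiviral RNA sensor IFIT1, rose by 1.80 ± 0.18 (1.52 ± 0.29), IFITM1, a membrane protein that restricts virus entry, by 1.03 ± 0.09 (1.08 ± 0.15), and OAS1, an activator of RNase L, by 1.29 ± 0.27 (1.90 ± 0.41). Not all members moved: ISG15 itself rose by 0.84 ± 0.14 but had 0.37 ± 0.18 with the term (not called), IFIT1 read a change of -0.025 ± 0.14 (not called) and USP18, which removes ISG15, fell by 0.38 ± 0.15 but was not called with the term. At 6 h the list's median difference from replicate 4 was 0.04, and at 24 h its median difference from 0 min replicates 1 to 3 was 0.99.

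Promoters of the members with the smallest p that were called in both fits and held the interferon-stimulated response element are printed to show where it lies. RefSeq windows on GRCh38.p14 run from 250 bases before to 50 bases after a gene's start; the first window listed for each symbol was used. The core of this element, which is GAAA, any 2 bases and GAAA again on either strand, was found in the windows of 15 of 26 members (57.7%), against 3.65% of all 27305 windows and 2.66% of the 9453 windows of tested genes. Of the 18 members called in both fits that had a window, 8 held it. Such matches describe the letters and do not show binding. MX1 (chr21:41420308-41420607, + strand), IFITM1 (chr11:313790-314089, + strand) and IFIT3 (chr10:89327747-89328046, + strand) have it in capitals.
MX1: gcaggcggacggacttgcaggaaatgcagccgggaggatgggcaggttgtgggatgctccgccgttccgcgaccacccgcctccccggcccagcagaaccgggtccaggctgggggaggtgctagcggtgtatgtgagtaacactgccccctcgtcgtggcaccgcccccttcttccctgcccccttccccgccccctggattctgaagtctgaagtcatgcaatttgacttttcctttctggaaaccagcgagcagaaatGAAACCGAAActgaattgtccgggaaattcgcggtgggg
IFITM1: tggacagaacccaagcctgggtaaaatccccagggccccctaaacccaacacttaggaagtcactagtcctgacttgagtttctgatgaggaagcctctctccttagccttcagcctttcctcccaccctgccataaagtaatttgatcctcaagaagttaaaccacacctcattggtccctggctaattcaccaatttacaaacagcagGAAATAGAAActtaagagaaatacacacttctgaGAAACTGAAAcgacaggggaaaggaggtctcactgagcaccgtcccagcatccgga
IFIT3: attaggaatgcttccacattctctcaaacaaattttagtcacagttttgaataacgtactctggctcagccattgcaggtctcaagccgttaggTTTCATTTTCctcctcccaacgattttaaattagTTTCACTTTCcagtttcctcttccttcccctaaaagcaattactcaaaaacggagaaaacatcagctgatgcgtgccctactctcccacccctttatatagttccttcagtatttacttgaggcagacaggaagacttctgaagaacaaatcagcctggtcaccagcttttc
The first base of the match lies at +12 in MX1, at -40 and -6 in IFITM1 and at -156 and -122 in IFIT3, counted from the gene's start.

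Antigen-presentation genes, which load peptides onto MHC molecules, were higher at 24 h, and less so with the term. Of 20 tested, 16 rose and 1 fell without it, 8 rose and 2 fell with it, and 8 rose and 1 fell in both. The list's median was 1.09 without and 0.39 with the term, and replicate 4 lay at a median of -0.54 from 0 min replicates 1 to 3 for these genes. PSMB9, a catalytic subunit of the immunoproteasome, read 9.21, 8.92 and 9.07 at 6 h and 10.81, 10.97 and 10.90 at 24 h, while replicate 4 (9.04) lay within the other 0 min arrays (9.11, 9.02 and 8.96). PSMB9 rose by 1.83 ± 0.10 and 1.84 ± 0.17 with the term. PSMB8, its partner subunit, rose by 1.63 ± 0.14 (1.15 ± 0.18), NLRC5, the transactivator of MHC class I genes, by 2.64 ± 0.31 (1.66 ± 0.41), and HLA-DMA, which loads class II molecules, by 2.15 ± 0.17 (1.74 ± 0.24).

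The classical class I genes did not keep their calls. HLA-B rose by 1.15 ± 0.33 and HLA-C by 1.07 ± 0.23 without the term, against -0.39 ± 0.18 and 0.035 ± 0.14 with it, neither called; probe sets of these near-identical genes can share RNA. TAP1 rose by 1.53 ± 0.29 and had 0.28 ± 0.21 with the term (not called), whereas TAP2, its partner in the peptide transporter, fell by 0.93 ± 0.08 (0.86 ± 0.13). TAP2 probe sets went opposite ways: of 4 tested, 1 was called lower in both fits and 1 higher in both, by 0.70 (1.09 with the term). Genes of NF-kB signalling and its cytokine targets showed 8 rises and 2 falls of 13 without the term but 3 rises with it and 2 in both. ICAM1, an adhesion molecule, rose by 1.71 ± 0.24 (0.69 ± 0.21) and TNFAIP2 by 1.10 ± 0.13 (1.21 ± 0.21). All 3 ICAM1 probe sets were called higher without the term, and 1 with it. NFKBIA, the inhibitor IkB-alpha, rose by 1.91 ± 0.29 and NFKB1, the p105 precursor, by 1.04 ± 0.16; with the term the values were 0.73 ± 0.26 and 0.46 ± 0.18, not called (another NFKBIA probe set rose in both fits), and replicate 4 lay at a median of -0.58 from the other 0 min arrays over the list.

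Metallothioneins, small cysteine-rich proteins that bind zinc and copper, and the zinc exporter SLC30A1 fell together. All 7 of 7 members tested fell in both fits, against 7.21% of all genes, and the list's median was -1.37 (-1.41 with the term). MT1F read 12.32, 12.40 and 12.35 in 0 min replicates 1 to 3, 12.24 in replicate 4, 12.34, 12.33 and 12.19 at 6 h and 10.17, 10.20 and 10.20 at 24 h. Every array up to 6 h lay between 12.19 and 12.40, far above each 24 h array: MT1F fell by 2.09 ± 0.08 (adjusted p = 8.89e-09) and 2.21 ± 0.13 with the term. MT1G fell by 1.58 ± 0.09 (1.51 ± 0.14), from 10.46, 10.58 and 10.54 to 8.86, 9.07 and 8.92, and MT2A by 1.15 ± 0.08 (1.10 ± 0.13), from 12.78, 12.99 and 12.87 to 11.68, 11.73 and 11.78. MT1X, MT1H and MT1E fell by 1.47, 1.13 and 1.08, and SLC30A1 by 1.37 ± 0.10 (1.69 ± 0.12), with another SLC30A1 probe set at 0.14. MT1 genes are near-identical copies whose probe sets can share RNA, so the 6 metallothioneins are not independent readings.

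The core of the metal response element, through which the zinc sensor MTF1 acts, was searched after these values were seen, as TGCACNC and TGCGCNC on either strand. Of the 4 members with a RefSeq window, 4 held the first form (11.9% of all windows and 11.5% of those of tested genes) and 3 the second (20% and 31.6%). The 2 members called in both fits with the smallest p among those with a window are printed, with matches in capitals: MT2A (chr16:56608334-56608633, + strand), with 8 matches, and SLC30A1 (chr1:211579112-211579411, - strand), with 2.
MT2A: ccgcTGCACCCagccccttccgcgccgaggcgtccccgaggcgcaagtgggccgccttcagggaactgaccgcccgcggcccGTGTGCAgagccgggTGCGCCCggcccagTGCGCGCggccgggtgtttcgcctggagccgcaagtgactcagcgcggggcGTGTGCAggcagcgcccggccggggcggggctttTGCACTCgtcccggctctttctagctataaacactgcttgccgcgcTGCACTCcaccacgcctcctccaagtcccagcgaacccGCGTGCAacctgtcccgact
SLC30A1: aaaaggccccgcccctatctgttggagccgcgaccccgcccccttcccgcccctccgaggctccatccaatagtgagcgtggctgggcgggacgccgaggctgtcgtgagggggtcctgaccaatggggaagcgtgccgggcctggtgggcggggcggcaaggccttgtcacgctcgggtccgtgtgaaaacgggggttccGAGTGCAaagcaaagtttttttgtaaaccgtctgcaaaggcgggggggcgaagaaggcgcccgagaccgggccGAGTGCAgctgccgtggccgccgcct

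Genes of the G1/S transition and of DNA replication fell. Of 40 tested, 23 fell and 3 rose without the term, 16 fell with it, and 12 fell in both fits, against 7.21% of all genes, with medians of -0.40 and -0.45. CDC6, which loads the MCM helicase onto origins, read 9.69, 9.54 and 9.86 in 0 min replicates 1 to 3 and 10.34 in replicate 4, 10.46, 10.44 and 10.64 at 6 h and 8.62, 8.45 and 8.73 at 24 h. Its 24 h arrays were the lowest of all BT20 arrays, and it fell by 1.91 ± 0.19 (1.26 ± 0.22 with the term). MCM10, a replication initiation factor, fell by 1.46 ± 0.15 (1.03 ± 0.19), from 9.74, 9.71 and 9.93 to 8.14, 8.45 and 8.40. GINS3, a subunit of the replicative helicase complex, fell by 0.55 ± 0.09 (0.55 ± 0.14) and its partner GINS4 by 1.97 ± 0.30, with -0.76 ± 0.28 in the second fit (not called).

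The smaller falls called in both fits included PCNA, the sliding clamp, by 0.57 ± 0.10 (0.64 ± 0.17), MCM6 by 0.37 ± 0.09 (0.45 ± 0.15) and RRM2, the small subunit of ribonucleotide reductase, by 0.51 ± 0.09 (0.42 ± 0.14). The E2F site TTTCCCGC was found in the windows of 10 of 34 members (29.4%) against 1.66% of all windows and 2.79% of those of tested genes, and the form TTTGGCGC in 6 of 34 (17.6%) against 0.659% and 1.06%. CDC6 (chr17:40287629-40287928, + strand) and GINS3 (chr16:58392221-58392520, + strand) are the members called in both fits with the smallest p that hold either form; capitals mark it.
CDC6: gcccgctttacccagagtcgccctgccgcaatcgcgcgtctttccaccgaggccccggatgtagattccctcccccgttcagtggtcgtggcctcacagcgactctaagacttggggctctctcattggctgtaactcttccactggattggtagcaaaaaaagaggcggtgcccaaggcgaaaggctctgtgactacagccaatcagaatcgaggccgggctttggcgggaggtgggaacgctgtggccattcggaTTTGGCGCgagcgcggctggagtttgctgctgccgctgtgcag
GINS3: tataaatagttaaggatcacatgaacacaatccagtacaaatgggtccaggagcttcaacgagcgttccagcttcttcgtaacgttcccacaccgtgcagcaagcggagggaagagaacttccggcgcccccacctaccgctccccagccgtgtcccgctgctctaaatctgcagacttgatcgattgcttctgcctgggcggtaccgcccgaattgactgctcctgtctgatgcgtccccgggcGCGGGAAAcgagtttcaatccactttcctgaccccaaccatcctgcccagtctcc
The match starts at +8 in CDC6 and at -5, on the opposite strand, in GINS3.

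Mitotic genes gave no such pattern. Of 42 tested for G2/M and mitosis 16 fell and 5 rose without the term, but 2 fell and 4 rose with it, 2 fell in both, and the median was -0.19 and 0.066. PLK4, the kinase of centriole duplication, fell by 1.01 ± 0.14 (0.62 ± 0.18) and ANLN, anillin of the cleavage furrow, by 0.91 ± 0.14 (0.60 ± 0.21). CDC20, an activator of the anaphase-promoting complex, rose by 1.63 ± 0.28 and had 0.66 ± 0.33 with the term (not called); MAD2L1, a spindle checkpoint protein, fell by 0.54 ± 0.11 and had -0.37 ± 0.18 (not called). CDC20 read 10.02 in replicate 4, 9.77, 9.80 and 9.60 at 6 h and 11.24, 11.20 and 10.54 in 0 min replicates 1 to 3, and its 24 h values of 11.22, 11.44 and 11.41 lay near those of 0 min replicates 1 and 2.

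Of 11 CDK inhibitor, D-cyclin and pocket-protein genes tested 4 fell and 1 rose without the term, 3 fell and 1 rose with it, and 2 fell in both: RBL1, the pocket protein p107, by 0.86 ± 0.13 (0.91 ± 0.22), and CDK6 by 0.49 ± 0.09 (0.50 ± 0.14), with CDK6 probe sets from -0.87 to 0.51. CCND1, cyclin D1, stayed near its 6 h level, at 10.31, 10.26 and 10.38 then and 10.41, 10.40 and 10.50 at 24 h, a change of 0.12 ± 0.08 with a 95% interval of -0.06 to 0.30 (not called), after 11.51 to 11.65 at 0 min. CDKN1A, which encodes the CDK inhibitor p21, gave opposite readings: 0.34 ± 0.33 without the term (not called) and a fall of 1.17 ± 0.20 with it. CDKN1A read 9.27, 9.29 and 8.93 in 0 min replicates 1 to 3 but 7.65 in replicate 4, next to the 6 h values of 7.65, 7.62 and 7.82, and 8.20, 7.89 and 8.04 at 24 h. CDKN1B, the inhibitor p27, fell by 0.63 ± 0.20 and had 0.094 ± 0.23 with the term (not called). CCND3 rose by 1.02 ± 0.20 and RB1 fell by 0.62 ± 0.17 without the term, against 0.19 ± 0.19 and -0.10 ± 0.22 with it, neither called.

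DNA repair and damage-response genes counted 15 falls and 5 rises of 37 without the term, 7 falls with it and 5 in both, with medians of -0.22 and -0.18. Beside CLSPN, CHEK1, the checkpoint kinase that claspin serves, fell by 1.21 ± 0.12 (0.81 ± 0.16), from 10.78, 10.76 and 10.74 to 9.46, 9.60 and 9.61. The CHEK1 arrays of 24 h were below all others on this probe set. Of 4 CHEK1 probe sets 2 were called lower in both fits and 1 higher in both, by 0.72 (0.81 with the term). NBN, of the MRE11 complex, fell by 1.08 ± 0.16 (0.57 ± 0.20), with NBN probe sets from -1.08 to 0.61. Of 20 p53 target genes 5 rose and 7 fell without the term, 3 and 3 with it, and 2 and 1 in both. AEN, a p53-induced nuclease, fell by 1.77 ± 0.16 (1.27 ± 0.20), from 7.75, 7.90 and 7.77 to 5.88, 5.91 and 6.33. TP53I3 rose by 2.36 ± 0.43 and TIGAR fell by 0.55 ± 0.13 without the term, against 0.46 ± 0.30 and -0.11 ± 0.17 with it, not called.

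Genes listed as output of the ERK pathway fell further for some members and were below 4 by 6 h for others. Of 23 tested 10 fell and 2 rose without the term, 9 fell and 4 rose with it, and 6 fell and 2 rose in both, with medians of -0.34 and -0.32. By 6 h the members already lay at a median of -1.71 from replicate 4, and by 24 h at -2.43 from replicates 1 to 3. DUSP6, the ERK phosphatase, read 9.02, 8.94 and 9.40 and 9.42 at 0 min, 3.50, 3.67 and 3.66 at 6 h and 2.96, 3.03 and 3.81 at 24 h. All its 6 h and 24 h values were below 4 and overlapped, with a change of -0.34 ± 0.21 and an interval of -0.81 to 0.12 (not called). SPRY4, a feedback inhibitor of receptor signalling, was likewise at 2.11, 2.02 and 2.28 and 2.31, 2.25 and 2.89, below 4 at both times.

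EPHA4, an ephrin receptor, made most of its fall late. It read 9.11, 9.21 and 9.38 and 8.43 at 0 min, 7.48, 7.44 and 7.68 at 6 h and 4.23, 4.49 and 4.64 at 24 h, and fell by 3.08 ± 0.22 (3.89 ± 0.24). HMGA2, a chromatin architectural factor, fell by 2.61 ± 0.26 (3.53 ± 0.30), from 6.79, 7.19 and 6.98 to 4.48, 4.01 and 4.63, and ETV4, an ETS transcription factor, by 1.79 ± 0.14 (1.96 ± 0.23), from 5.79, 5.99 and 6.05 to 3.93, 4.08 and 4.44. SPRED1, SPRED2 and SPRY2, inhibitors of RAS signalling, fell by 2.10 ± 0.26, 1.65 ± 0.21 and 1.48 ± 0.18 and were called in both fits. IER3 went the other way: it read 12.81, 12.83 and 12.72 at 0 min, 11.18, 11.13 and 11.14 at 6 h and 12.24, 12.23 and 12.25 at 24 h, and rose by 1.09 ± 0.08 (1.17 ± 0.12) without reaching the 0 min level.

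**Figure D4:**
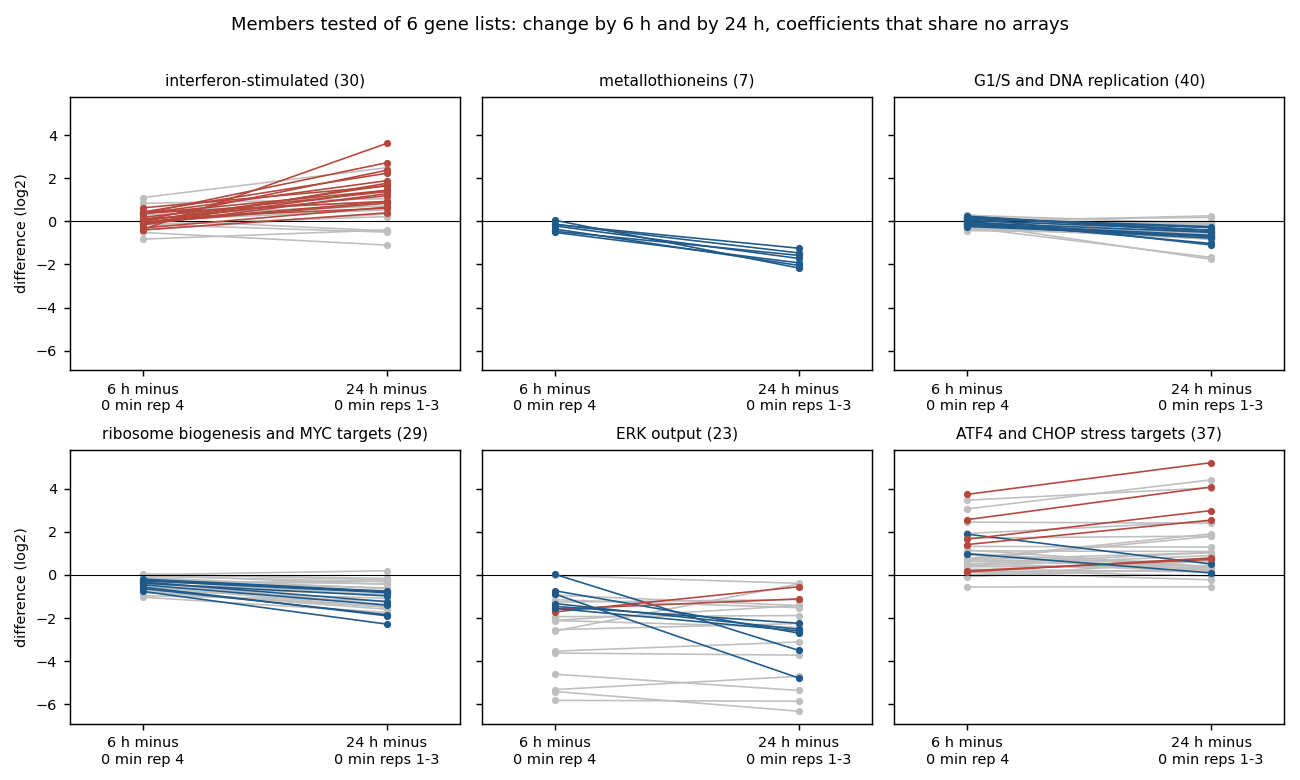
For the tested members of 6 gene lists (number in brackets), lines join the log2 difference of 6 h from 0 min replicate 4 to that of 24 h from 0 min replicates 1 to 3, which share no arrays; red and blue mark members called higher or lower at 24 h than at 6 h in both fits. Metallothioneins start near 0 and end between -1.25 and -2.17, whereas several ERK output genes are already more than 4 units down at 6 h.

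Immediate early genes depended on the term. Of 20 tested 7 rose and 6 fell without it, 7 rose and 2 fell with it, 3 rose and 2 fell in both, and the median was -0.30 and 0.22. KLF4, a transcription factor, fell by 2.13 ± 0.17 (2.80 ± 0.16), from 8.80, 8.87 and 9.06 to 6.79, 6.71 and 6.85, with replicate 4 at 8.56 below the other 0 min arrays, and KLF6 fell by 1.38 ± 0.19 (0.77 ± 0.25), although another KLF6 probe set changed by 0.54. FOS read 3.19, 3.69 and 3.48 in 0 min replicates 1 to 3 but 6.67 in replicate 4, 5.34, 5.17 and 4.61 at 6 h and 3.99, 4.54 and 4.18 at 24 h. Its change was -0.80 ± 0.69 without the term (not called) and a rise of 2.41 ± 0.34 with it. EGR1 had -0.44 ± 0.27 (not called) and rose by 0.68 ± 0.23 with the term. MYC read 7.77, 8.67 and 7.94 in 0 min replicates 1 to 3, 11.19 in replicate 4, 9.90, 9.89 and 9.50 at 6 h and 6.15, 6.91 and 6.36 at 24 h. MYC fell by 3.29 ± 0.67 without the term (adjusted p = 0.00167), and with it the change was -0.23 ± 0.42, with an interval of -1.14 to 0.68 (not called).

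Within the EGFR family 3 ligands fell, and no receptor was called in both fits. Of 16 members tested 4 rose and 6 fell without the term, 1 rose and 4 fell with it, and 3 fell in both: EREG, TGFA and HBEGF, all EGFR ligands. EREG, epiregulin, read 11.10, 11.09 and 11.22 at 6 h and 8.84, 8.85 and 8.89 at 24 h, below the 11.06, 11.09 and 11.16 of 0 min replicates 1 to 3 and the 11.95 of replicate 4, and fell by 2.27 ± 0.19 (1.43 ± 0.13). The other EREG probe set fell by 0.96 without the term and turned sign with it, to 0.55 (not called). TGFA fell by 0.79 ± 0.10 (0.56 ± 0.15), with TGFA probe sets from -3.75 to 0.13, and HBEGF by 0.92 ± 0.20 (1.41 ± 0.30). EGFR changed by -0.065 ± 0.11 (interval -0.29 to 0.16) and -0.36 ± 0.14 with the term, neither called. The 8 EGFR probe sets changed by -1.24 to 1.03 without the term, where 2 rose and 2 fell, and none was called with it. ERBB3 changed by 0.088 ± 0.09 (interval -0.10 to 0.27; not called), and its other probe set rose by 0.37 without the term only. ERBB2 rose by 1.48 ± 0.24 but was not called with the term (0.80 ± 0.33). PTPN6, the phosphatase SHP1, rose by 1.76 ± 0.31 with 0.86 ± 0.43 (not called) in the second fit.

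Of 17 other receptor tyrosine kinases and adaptors 7 rose and 6 fell without the term, 5 fell with it, and 4 fell in both: AXL, ROR1, MET and IRS2. ROR1, a receptor for Wnt5a, fell by 1.80 ± 0.24 (0.78 ± 0.18), from 7.44, 7.25 and 7.44 to 5.43, 5.56 and 5.72, while another ROR1 probe set changed by 0.58. MET, the receptor for hepatocyte growth factor, fell by 0.32 ± 0.10 (0.52 ± 0.15). FGFR3 rose by 1.12 ± 0.20 and EPHB4 fell by 1.25 ± 0.24 without the term, against 0.74 ± 0.31 and -0.49 ± 0.30 with it, neither called.

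Ribosome biogenesis and MYC target genes fell more with the term than without it. Of 29 tested 14 fell and 4 rose without it, 15 fell with it, and 9 fell in both, with medians of -0.27 and -0.55. ODC1, ornithine decarboxylase of the polyamine pathway, fell by 0.95 ± 0.09 (0.91 ± 0.15), from 10.51, 10.42 and 10.46 to 9.41, 9.56 and 9.57. SRM, spermidine synthase, fell by 0.85 ± 0.18 (1.51 ± 0.19). WDR12, of the PeBoW complex of the large ribosomal subunit, fell by 0.81 ± 0.12 (0.55 ± 0.17), and WDR3 and WDR43, of the small-subunit processome, by 0.50 ± 0.08 and 0.47 ± 0.09. The E-box CACGTG, bound by MYC and also by the lysosomal regulators TFE3 and TFEB, was found in 10 of 25 members' windows (40%). The share was 7.43% of all windows and 10.5% of those of tested genes, and for the lysosome and autophagy genes described later it was 7 of 18 (38.9%).

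Among the BH3-only and pro-death genes tested, BMF rose most in both fits. BMF, a BH3-only protein that blocks BCL2-like survival proteins, read 4.00, 3.95 and 3.95 and 3.37 at 0 min, 4.43, 4.65 and 4.31 at 6 h and 7.96, 8.24 and 8.06 at 24 h. The 24 h arrays lay more than 3 units above every 6 h array, and the rise was 3.62 ± 0.16 (adjusted p = 2.53e-08), or 3.03 ± 0.17 with the term. BCL2, the founding survival protein, read 4.66, 4.50 and 4.70 at 6 h and 3.13, 3.01 and 3.44 at 24 h, after 5.33, 5.63 and 5.27 and 5.55 at 0 min, and fell by 1.43 ± 0.16 (1.29 ± 0.27) to a mean below 4. BAX, the pore-forming effector, rose by 0.57 ± 0.11 (0.62 ± 0.19) and CASP4, an inflammatory caspase, by 1.77 ± 0.17 (1.32 ± 0.24). The other BAX probe set rose by 0.50 (0.47 with the term) and the other CASP4 probe set by 0.999 (0.22), neither called with the term.

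Over the 22 BH3-only and pro-death genes tested 8 rose and 4 fell without the term, 9 rose and 2 fell with it, and 4 rose and 2 fell in both, with medians of 0.37 and 0.38. The shares of all genes tested were 31.3% and 26% without the term, 16.8% and 11.9% with it, and 11.6% and 7.21% in both. BCL2L11, the BH3-only protein BIM, changed by 0.43 ± 0.21 and by -0.46 ± 0.16 with the term, neither called; replicate 4 read 8.51 against 9.28, 9.53 and 9.38 in the other 0 min arrays. Of its 6 tested probe sets, from -1.04 to 0.43, 3 fell without the term and 2 of these in both fits. BID, a substrate of caspase 8, changed by 0.063 ± 0.10 (interval -0.17 to 0.29; not called). Its 2 other probe sets rose, by 0.81 and 1.10, without the term and were not called with it. CASP8 itself fell by 0.94 ± 0.33 without the term and had 0.35 ± 0.33 with it (not called); it read 10.11 in replicate 4, 9.98, 9.92 and 10.21 at 6 h and 9.09, 8.96 and 9.24 at 24 h. BAK1, the other pore-forming effector, rose by 1.26 ± 0.21 and had 0.42 ± 0.18 with the term (not called).

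Of 11 BCL2-like and other death inhibitors 2 rose and 2 fell without the term, 1 rose and 2 fell with it, and 1 rose and 1 fell in both. MCL1, a short-lived survival protein, rose by 0.58 ± 0.09 (0.51 ± 0.15), although its probe sets changed by -0.51 to 0.82. CFLAR, the caspase 8 inhibitor FLIP, changed by -0.061 ± 0.13 (interval -0.34 to 0.22; not called) on the probe set with the highest mean, the lowest of 13 changes that reached 0.89. Without the term 8 of the 13 CFLAR probe sets rose, with it 1 did, and none was called in both fits. BCL2L1, BCL-XL, rose by 1.19 ± 0.21 and XIAP fell by 0.57 ± 0.18 without the term, against 0.33 ± 0.17 and -0.038 ± 0.25 with it, neither called. Of 9 death receptors and ligands 3 rose and 3 fell without the term, and TNFRSF10A, a TRAIL receptor, fell in both, by 0.49 ± 0.13 (0.84 ± 0.19). Its relative TNFRSF10B fell by 0.25 ± 0.08 and LTBR and TRADD rose by 1.38 ± 0.26 and 1.08 ± 0.21 without the term, against -0.22 ± 0.13, 0.19 ± 0.16 and 0.47 ± 0.29 with it, none called. Of 3 TNFRSF10A probe sets 1 fell in both fits, and of 3 TNFRSF10B probe sets also 1.

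**Figure D5:**
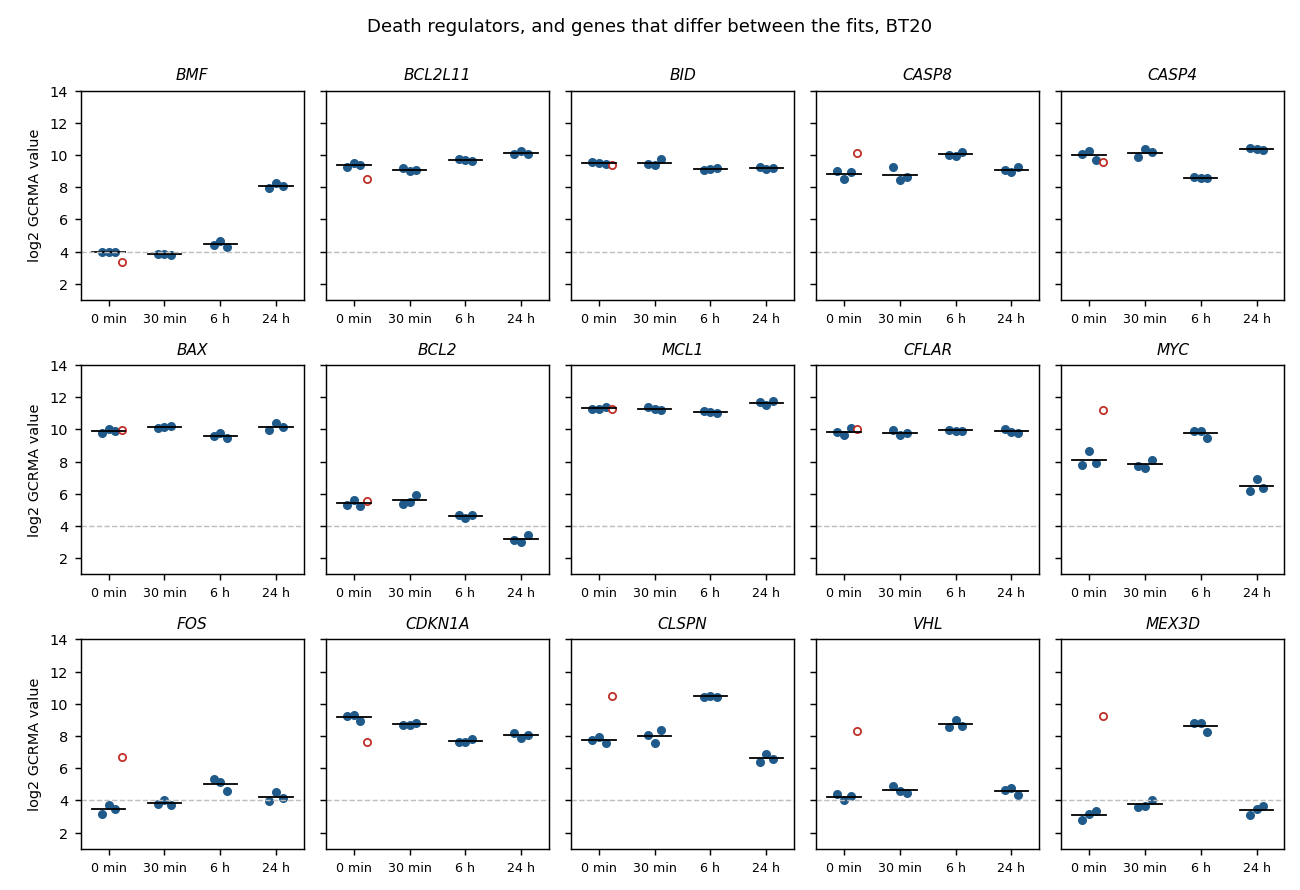
Log2 GCRMA values on the 13 BT20 arrays by time after erlotinib for 9 death regulators and 6 genes on which the fits differ or 0 min replicate 4 stands apart; filled points are arrays, open points are 0 min replicate 4, bars are means of replicates 1 to 3 and the dashed line is the level of 4. BMF rises to 7.96 to 8.24 at 24 h, BCL2 ends at 3.01 to 3.44, and for CASP8, MYC, CLSPN, VHL and MEX3D the open point lies near or above the 6 h arrays.

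Stress and metabolic programmes split. Targets of ATF4 and CHOP, the transcription factors of the integrated stress response, lay at a median of 0.71 above replicate 4 at 6 h and of 0.72 above 0 min replicates 1 to 3 at 24 h. Between 6 h and 24 h 17 of 37 rose and 4 fell without the term, 10 rose and 5 fell with it, and 6 rose and 2 fell in both. NUPR1, a stress-induced chromatin protein, read 8.03, 8.52 and 7.80 and 7.98 at 0 min, 10.71, 10.71 and 10.21 at 6 h and 12.28, 12.15 and 12.16 at 24 h, and rose further by 1.65 ± 0.19 (1.52 ± 0.31). PCK2, mitochondrial PEP carboxykinase, rose by 1.94 ± 0.24 (1.13 ± 0.30) and PHGDH, the first enzyme of serine synthesis, by 0.93 ± 0.12 (0.64 ± 0.17). CTH, of cysteine synthesis, was high at 6 h only: it read 5.29, 5.69 and 5.57 and 6.63 at 0 min, 8.46, 8.60 and 8.49 at 6 h and 5.84, 6.20 and 6.03 at 24 h, a fall of 2.49 ± 0.26 (1.38 ± 0.23). DDIT4, an inhibitor of mTORC1, read 11.83, 11.98 and 11.95 at 6 h and 12.31, 12.34 and 12.33 at 24 h, with 0.40 ± 0.24 (not called) and a rise of 1.34 ± 0.25 with the term.

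FOXO-responsive genes counted 6 rises and 7 falls of 28 without the term, 12 and 5 with it, and 6 and 3 in both, with medians of -0.12 and 0.27. TSC22D3, the leucine-zipper protein GILZ, went from 7.77, 7.76 and 7.55 and 8.26 at 0 min to 10.52, 10.39 and 10.16 at 6 h and 11.81, 11.81 and 11.99 at 24 h, a late rise of 1.51 ± 0.16 (2.07 ± 0.18). GADD45B rose by 2.32 ± 0.21 (2.19 ± 0.36), from 8.54, 8.59 and 8.49 to 10.93, 10.83 and 10.82, and FOXO4 itself by 0.96 ± 0.09 (0.78 ± 0.14). ARRDC4, an arrestin-like inhibitor of glucose uptake, fell by 1.62 ± 0.13 (1.24 ± 0.17), and its relative TXNIP fell by 0.35 ± 0.12 with 0.039 ± 0.14 in the second fit (not called).

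NRF2 targets, which detoxify electrophiles, rose for 14 of 22 and fell for 2 without the term, rose for 11 and fell for 2 with it, and rose for 10 and fell for 1 in both, with medians of 0.72 and 0.48. ABCC3, an export pump for conjugates, read 8.87, 8.84 and 8.49 and 8.64 at 0 min, 8.48, 8.28 and 8.57 at 6 h and 11.43, 11.50 and 11.45 at 24 h. The 6 h arrays overlapped the 0 min and 30 min arrays, and the rise after 6 h was 3.01 ± 0.16 (2.92 ± 0.26). AKR1C3, an aldo-keto reductase with near-identical relatives, rose by 1.97 ± 0.11 (1.95 ± 0.18), HMOX1, haem oxygenase 1, by 1.66 ± 0.15 (1.69 ± 0.24) and PIR by 1.65 ± 0.12 (1.46 ± 0.19). The classical targets NQO1, TXNRD1 and GCLM were not called in either fit, with changes of 0.13 ± 0.09, -0.037 ± 0.08 and -0.17 ± 0.12, and SLC7A11, the cystine transporter, fell by 0.61 ± 0.10 (0.89 ± 0.12).

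Cholesterol synthesis genes rose for 9 of 17 and fell for 2 without the term, rose for 8 with it and rose for 6 in both, with medians of 0.63 and 0.54. SREBF2, the transcription factor of the pathway, read 7.40, 7.22 and 7.14 in 0 min replicates 1 to 3, 6.13 in replicate 4, 6.46, 6.64 and 6.32 at 6 h and 8.91, 8.96 and 8.87 at 24 h. Its 24 h arrays were the highest of all, and it rose by 2.44 ± 0.25 (1.32 ± 0.18). LSS, lanosterol synthase, rose by 1.30 ± 0.17 (0.86 ± 0.24), IDI1, isopentenyl diphosphate isomerase, by 1.06 ± 0.14 (0.75 ± 0.22) and DHCR7, 7-dehydrocholesterol reductase, by 0.87 ± 0.09 (1.01 ± 0.15). Lysosome and autophagy genes rose for 15 of 26 and fell for 2 without the term but rose for 1 and fell for 1 with it. The rise was WIPI1, a phosphoinositide-binding autophagy protein, up by 1.20 ± 0.14 (0.90 ± 0.21). The other WIPI1 probe set rose by 0.75 without the term and had 0.32 with it (not called). The proteases CTSD and CTSA rose by 1.38 ± 0.23 and 1.01 ± 0.15 and the kinase ULK1 by 1.18 ± 0.18 without the term, against 0.43 ± 0.22, 0.44 ± 0.17 and 0.72 ± 0.26 with it, none called, and replicate 4 lay at a median of -0.45 from the other 0 min arrays over the list.

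Epithelial identity genes moved in both directions. Of 23 genes of the cornified envelope and squamous differentiation 11 rose and 6 fell without the term, 7 rose and 6 fell with it, and 7 rose and 5 fell in both. Beside IVL and TGM2, PPL, periplakin, rose by 1.18 ± 0.14 (0.74 ± 0.17) and KLK8, a serine protease of the epidermis, by 1.30 ± 0.17 (0.68 ± 0.18). Of 15 luminal and secretory markers 7 rose and 1 fell without the term, 5 rose with it and 3 rose in both. MUC1, the epithelial mucin, read 10.81, 10.81 and 10.74 and 11.08 at 0 min, 11.36, 11.47 and 11.56 at 6 h and 12.56, 12.59 and 12.58 at 24 h, and rose by 1.11 ± 0.11 (1.41 ± 0.14). CLDN4, a tight-junction claudin, rose by 1.11 ± 0.15 (1.05 ± 0.25) and KRT19 by 1.20 ± 0.18 (0.83 ± 0.27), while KRT7 rose by 0.50 ± 0.12 without the term only (0.12 ± 0.15 with it).

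Of 13 basal markers 5 rose and 3 fell without the term, 2 rose and 4 fell with it, and 1 rose and 3 fell in both. The rise was KRT15, a basal keratin, from 6.22, 6.55 and 6.39 at 6 h to 9.69, 9.59 and 9.61 at 24 h, with 0 min values of 6.90, 6.87 and 6.67 and 6.56; it rose by 3.25 ± 0.12 (2.99 ± 0.19). The falls were S100A2, a calcium-binding protein, by 1.51 ± 0.13 (1.29 ± 0.21), CAV1, caveolin 1, by 1.21 ± 0.13 (1.03 ± 0.21), and ITGA6, the laminin receptor chain, by 1.03 ± 0.13 (1.11 ± 0.22). Adhesion, matrix and protease genes counted 8 rises and 8 falls of 25 without the term, 2 rises and 12 falls with it, and 2 and 7 in both, with medians of 0.0063 and -0.52. ITGA2, a collagen receptor chain, read 11.12, 11.11 and 11.41 and 10.69 at 0 min, 9.20, 9.13 and 9.38 at 6 h and 7.31, 7.25 and 7.53 at 24 h, and fell by 1.88 ± 0.17 (2.40 ± 0.23). TNC, tenascin C, fell by 2.29 ± 0.21 (3.15 ± 0.20), from 9.58, 9.35 and 9.66 to 7.34, 6.99 and 7.40. TNS1, tensin 1, rose by 2.25 ± 0.12 (2.11 ± 0.20) from a mean below 4.

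ID1, an inhibitor of bHLH factors and a target of BMP signalling, read 5.59, 5.35 and 5.23 in 0 min replicates 1 to 3 and 6.79 in replicate 4, 6.48, 6.47 and 6.16 at 6 h and 9.85, 9.94 and 9.75 at 24 h. It rose by 3.47 ± 0.31, or 4.88 ± 0.21 with the term, and its 24 h arrays stood above all others, the highest of which was replicate 4. In the TGF-beta, BMP and ID list 8 of 20 rose and 7 fell without the term, 4 rose and 3 fell with it, and 2 rose and 3 fell in both. TGFBR3, the coreceptor betaglycan, fell by 2.96 ± 0.36 (1.42 ± 0.29) to a mean below 4, and TGFBR2 fell by 1.58 ± 0.25 with -0.48 ± 0.19 in the second fit (not called). Retinoid and aryl hydrocarbon receptor genes rose for 8 of 17 and fell for 2 without the term, rose for 9 and fell for 2 with it, and rose for 7 and fell for 1 in both. CYP1A1, a monooxygenase induced through the aryl hydrocarbon receptor, went from 4.25, 4.05 and 4.43 to 7.59, 7.64 and 7.62, by 3.37 ± 0.35 (1.76 ± 0.19). STRA6, the receptor for retinol-binding protein, rose by 2.31 ± 0.17 (1.94 ± 0.25), and the retinoid-induced PLAAT4 and RARRES1 by 2.51 ± 0.27 (1.29 ± 0.15) and 1.78 ± 0.20 (1.06 ± 0.23). Other STRA6 probe sets changed by 0.68 and 0.43 (0.22 and 0.27 with the term) and were not called with it.

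Primary cilium genes, which encode the intraflagellar transport trains and the BBSome, rose for 13 of 34 and fell for 5 without the term, rose for 12 and fell for 1 with it, and rose for 8 and fell for 1 in both, with medians of 0.10 and 0.34. Over all genes tested 31.3% rose and 26% fell without the term, 16.8% and 11.9% with it, and 11.6% and 7.21% in both. IFT140, of the retrograde train, read 4.24, 4.21 and 3.90 at 6 h and 6.24, 6.29 and 5.90 at 24 h, against 4.53, 4.68 and 4.64 and 4.37 at 0 min. The 24 h arrays lay above all earlier ones, and IFT140 rose by 2.02 ± 0.14 (1.78 ± 0.22). IFT27 rose by 1.54 ± 0.14 (1.01 ± 0.15), IFT122 by 1.33 ± 0.16 (0.76 ± 0.20) and IFT172 by 1.18 ± 0.12 (1.16 ± 0.21). The other tested IFT27 probe set changed by 0.074 (0.16 with the term) and was called in neither fit.

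Some large changes were not kept once the shift that replicate 4 shares with the 6 h arrays was fitted. MEX3D, an RNA-binding protein, read 2.76, 3.19 and 3.32 in 0 min replicates 1 to 3 and 3.08, 3.44 and 3.63 at 24 h, but 9.24 in replicate 4 and 8.82, 8.81 and 8.27 at 6 h. MEX3D fell by 5.25 ± 1.27 without the term. With it the change turned sign, to 0.89 ± 0.33 higher at 24 h (not called). VHL, the ubiquitin ligase subunit that targets hypoxia-inducible factors, read 8.33 in replicate 4 and 8.57, 8.99 and 8.59 at 6 h against 4.39, 4.04 and 4.28 in replicates 1 to 3 and 4.64, 4.79 and 4.34 at 24 h. Its fall of 4.13 ± 0.85 became -0.037 ± 0.27 with the term, with an interval of -0.63 to 0.56 (not called). SLC35D1, a nucleotide-sugar transporter, and the splicing proteins SNRNP40 and PRPF39 fell by 4.11 ± 0.93, 3.83 ± 0.72 and 3.73 ± 0.69, and had 0.37 ± 0.28, -0.40 ± 0.28 and -0.47 ± 0.32 with the term, none called.

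In the other direction CLU, the secreted chaperone clusterin, was low on replicate 4 (6.81) and at 6 h (7.23, 7.13 and 7.17) and high at 24 h (9.93, 9.75 and 9.80), as it was in 0 min replicates 1 to 3 (10.01, 9.97 and 9.87). CLU rose by 2.65 ± 0.65 without the term and fell by 0.49 ± 0.16 with it. CUL7, GBP2, PLCD3 and TSHZ2 rose by 2.48 ± 0.44, 2.45 ± 0.47, 2.45 ± 0.58 and 2.43 ± 0.39 without the term, against 0.47 ± 0.26, 0.29 ± 0.24, -0.05 ± 0.45 and 1.02 ± 0.43 with it, none called. For MEX3D, VHL and CLU the level at 24 h lay near that of 0 min replicates 1 to 3, and a change after 6 h and the shared shift cannot be told apart from these arrays.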

How the data were processed

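Per the submitters' processing notes the authors used GCRMA 2.20.0 in R 2.11.1; what they deposited is 1 log2 value for each probe set and array, after background correction, normalization between arrays and summary over probes. They were used as deposited, in R 4.3.3 with limma 3.58.1. Of 54613 probe sets 41091 carried 1 gene symbol, 1801 several and 11721 none in the annotation used; 41037 of the first were renamed or kept through their Entrez ID in RefSeq. A gene was its probe set with the highest mean over the 25 arrays (19775 genes) and was tested if above 4 on at least 3 of the 13 BT20 arrays (11517).

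Means of the 4 groups (0 min, 30 min, 6 h, 24 h) were fitted to the 13 arrays with lmFit and eBayes, leaving 9 residual degrees of freedom, and 8 with a column for 0 min replicate 4 and the 6 h arrays. Tests were two-sided, adjusted by Benjamini-Hochberg over all genes tested and called under 0.05. Scripts were tested on simulated data. The number of arrays limits the precision. No 2 arrays held identical values.

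Named genes are the 12 largest rises and falls among genes called in both fits whose higher group averaged 6 or more and whose arrays did not overlap, the 5 largest each way that the fit with the term did not call in the same direction, up to 4 members with the smallest p of each list described, and 18 regulators of interest. Other list members and genes named outside this rule were chosen after their values were seen. Of 76 named genes with over 1 tested probe set, 16 had probe sets changing in both directions. The members, lists and rules were chosen with earlier results of these data known. Alternatives covered the arrays fitted, filter, probe set choice, normalization, empirical Bayes settings, array weights, replicate block and each array left out. Promoter windows are RefSeq's (GRCh38.p14). Some named genes and a motif search are not reported here.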

Additional observations from a re-analysis of the deposited data

Results flagged for a closer look

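In the group of 4 arrays at 0 min, 1 array stood apart from the other 3 for 28 of the 157 named genes, by a gap to its neighbour, relative to the group's range, above Dixon's 95% critical value; chance gives such a gap in about 1 of 20 groups. Of the 157 genes 10 were named because their change was not called in the same direction with the term for replicate 4, and 6 of the 28 are among these, so the count is not to be read against that rate. The array was replicate 4 for 26 genes and replicate 3 for the other 2, IER2 (11.64) and TNFAIP2 (10.87), both of which it read lowest. All values are log2 GCRMA values of the array concerned.

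Replicate 4 was the highest for 11 genes: CLSPN at 10.47, DDIT4 at 8.86, EREG at 11.95, FOS at 6.67, FUT8 at 10.08, GINS4 at 7.99, MEX3D at 9.24, SLC35D1 at 9.66, SNRNP40 at 9.33, TGFBR2 at 11.79 and VHL at 8.32. It was the lowest for 15: BMF at 3.37, CLU at 6.81, CYP1A1 at 3.64, FOXO4 at 3.51, GBP2 at 5.59, KRT7 at 12.70, LOC90246 at 5.22, LTBR at 8.49, MAB21L4 at 3.06, NFKBIA at 7.29, PLAAT4 at 10.00, PSMB8 at 10.64, TGM2 at 8.76, TNC at 9.38 and TRADD at 8.52. BMF, EREG, CYP1A1, FOXO4, MAB21L4, LOC90246, PLAAT4, PSMB8, TGM2, TNC, CLSPN and FUT8 were called in both fits, and their change is given with and without the shared-shift term; the cause of the shift was not tested.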

How the results depend on the processing

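The shift term rests on 1 array and raises the median standard error from 0.157 to 0.201. Drug and time in culture cannot be told apart, and probe sets below 4 give inexact sizes. Counts moved by over 1.5 times as follows. With the term 3304 genes were called, 1931 higher and 1373 lower, 487 of the latter at least 2-fold. In all 25 arrays with the term it was 1456, 902 higher and 554 lower (662 and 350 at least 2-fold), and 623 higher and 392 lower in both fits. With every probe set tested, so over more features, 12125 were called, 6162 higher and 5963 lower (2416 and 2417 at least 2-fold), with the term 5510, 3232 and 2278, and in both 2111 and 1347. With array weights 2135 were lower with the term and 1320 in both. Of the 2162 genes called in both fits 980 kept this in all 25 arrays, 1580 with the mean of probe sets and 1772 to 2149 when any 1 array other than 0 min replicate 4 was left out. Leaving out 1 array gave 5488 to 7905 calls (7905 without 0 min replicate 4), and 2911 to 3818 with the term. The fit to the 6 h and 24 h arrays alone called 8337. Replicate numbers did not pair the samples, since same-numbered 6 h and 24 h arrays had deviations correlated at 0.0793, -0.00942 and 0.0589; a replicate block gave 7710 calls, and 3015 with the term. With the term these medians turned sign: immediate early 0.22, EGFR family -0.0013, G2/M 0.066, CDK inhibitors 0.094, BCL2-like 0.069, death receptors 0.058, p53 targets 0.076, FOXO-responsive 0.27, basal markers -0.27 and adhesion -0.52. These genes did so too, at the same value in all 25 arrays: BCL2L11 -0.46, BID -0.039, CASP8 0.35, CDKN1A -1.17, CDKN1B 0.094, CFLAR 0.069, CLU -0.49, EGR1 0.68, FOS 2.41, MEX3D 0.89, PLCD3 -0.05, SLC35D1 0.37 and TXNIP 0.039. In all 25 arrays the calls of CLU (adjusted p = 0.174 by limma) and EGR1 (0.359) with the term were lost, and those of CDKN1A and FOS were not. With the mean of probe sets the EGFR family turned to -0.31, adhesion to -0.084, BCL2L11 to -0.38, CCND1 to -0.15, CFLAR to 0.49, DUSP6 to 0.006, EGFR to 0.034 and ERBB3 to -0.080. In that fit, without the term, BCL2L11 was called lower (adjusted p = 0.00398 by limma) and CFLAR higher (0.00177), and CCND1, DUSP6, EGFR and ERBB3 were not called. Repeated quantile normalization turned EGFR to 0.010, and centring turned the EGFR family to -0.0048 and adhesion to -0.0097. The cause was not tested.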

Other observations

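Other gene groups, counted in the same way, were mixed. Core histone genes, whose transcripts accumulate in S phase but include replication-independent copies, rose for 8 of 12 and fell for 1 without the shared-shift term and rose for 4 in both fits, among them H2AJ, by 1.66 ± 0.18 (1.13 ± 0.23 with the term), and H2BC21, by 1.34 ± 0.15 (1.32 ± 0.25); histone genes are near-identical copies whose probe sets can share RNA. Of 32 glycolysis and hypoxia genes 14 rose and 10 fell without the term, 3 rose and 7 fell with it, and 2 rose and 6 fell in both. HK2, a hexokinase, fell by 1.17 ± 0.17 (0.56 ± 0.20), ENO2, an enolase, by 0.99 ± 0.13 (1.08 ± 0.22) and PDK1, pyruvate dehydrogenase kinase 1, by 0.68 ± 0.10 (0.59 ± 0.16), while PFKFB4, a regulator of phosphofructokinase, rose by 1.51 ± 0.21 (0.73 ± 0.24). Of 12 fatty acid synthesis genes 5 rose and 4 fell without the term and 2 rose and 2 fell in both.

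Of 19 genes of the epithelial-mesenchymal state 5 rose and 6 fell without the term, 3 rose and 6 fell with it, and 3 rose and 4 fell in both. ZEB1 and SNAI2, transcription factors that repress epithelial genes, fell by 1.23 ± 0.16 (0.88 ± 0.24) and 0.74 ± 0.24 (1.32 ± 0.35), and THBS1, thrombospondin 1, by 3.19 ± 0.37 (1.85 ± 0.41). OVOL1, an epithelial repressor of mesenchymal genes, rose by 0.51 ± 0.15 (1.01 ± 0.17) and CLDN7, a claudin, by 1.15 ± 0.15 (0.63 ± 0.17), whereas CDH1, E-cadherin, changed by 0.076 ± 0.09 and VIM, vimentin, by -0.26 ± 0.20, neither called in either fit. Among 13 KLF factors KLF13 rose by 1.57 ± 0.18 (0.89 ± 0.19) and KLF8 by 1.35 ± 0.28 (2.53 ± 0.22), against the falls of KLF4 and KLF6. Wnt and Notch genes (19 tested) gave 1 rise and 1 fall in both fits, circadian clock genes (13) 2 and 2, ER chaperones and degradation factors (22) 1 fall, and heat shock genes (16) 1 rise. Ribosomal proteins (15) and respiratory chain subunits (22) each had 5 rises without the term, with medians of 0.22 and 0.15, and medians of 0.13 and 0.12 with it.

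Other motifs were searched in the same promoter windows, on both strands, and are given as descriptions. The core of the interferon-stimulated response element was found in 8 of 17 antigen-presentation windows (47.1%, against 3.65% of all windows), and in 2 of the 7 of members called in both fits. The sterol response element core TCACNCCAC was found in 1 of 16 cholesterol synthesis windows (6.25%, against 1.15%), that of SREBF2. The antioxidant response element core TGACNNNGC was found in 5 of 17 windows of NRF2 targets (29.4%, against 13.6%) and the forkhead site GTAAACA in 4 of 25 of FOXO-responsive genes (16%, against 3.41%). The ATF4 element TGATGNAA was found in 6 of 31 windows of ATF4 and CHOP targets (19.4%, against 3.67%), but in 0 of the 5 of members called in both fits.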
